A study of Saccharomyces cerevisiae with 3 samples.

Results

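Distal ETS1, positions 351 to 700 of the 35S gene, is the part of the 5′ external transcribed spacer that lies next to 18S. Its 350 members were chosen by position alone, as all ETS1 positions past the midpoint of the spacer, and make up 350 of the 6858 positions of the gene. The spacer is transcribed from the minus strand, and distal ETS1 lies at chrXII:466870-467219 of the R64-1-1 build, within the annotated noncoding feature ETS1-2 of *RDN37-2*. ETS1 positions 1 to 350, called proximal ETS1 here, are the most like region and serve for comparison.

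The data are native elongating transcript sequencing (NET-seq) of RNA polymerase I (Pol I) in *Saccharomyces cerevisiae*, in which nascent RNA is recovered with the immunoprecipitated polymerase and the 3′ end of each RNA is mapped to a single base. The 3 samples were *hmo1Δ* replicates, grown in YEPD at 30 °C, in which *HMO1* was replaced by *URA4*. *HMO1* encodes a high mobility group protein that binds the actively transcribed rRNA genes. The *hmo1Δ* strain and the wild-type (WT) strain both carried a His and HA tag on Rpa135, the second largest Pol I subunit, at RPA135::TRP1, so the tag was common to both. WT is given here only by the authors' pooled columns, their median, CV and interval. The table also has columns of single WT replicates, which come from a different series and were left out, so no test between strains was made, and a difference of strain cannot be told apart from one of library series. Only 35S positions are tabled, so the deletion of *HMO1* itself could not be checked in these values. The methods describe a separately grown culture for each replicate.

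ETS1 is the first stretch of the precursor to leave Pol I. In yeast it folds into a series of helices, binds the U3 small nucleolar ribonucleoprotein and early assembly factors, and seeds the small subunit processome while transcription is still under way. It is then removed by cleavage at the A0 site within the spacer and at the A1 site where 18S begins. Pol I does not move along the gene at an even rate, and a position with many RNA 3′ ends is read as one where the polymerase spends more time. An RNA 3′ end left by cleavage cannot be told apart from an end held in the Pol I active site in these values.

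Occupancy is given as RPM, reads scaled by the authors so that the positions from the start of the gene up to the T1 terminator sum to 1000000. The *hmo1Δ* libraries held 1984305 to 3700345.5 reads over those positions, and 78516, 46742 and 56176 of them lay in distal ETS1 in replicates 1, 2 and 3. The median position there held 125.5, 74 and 84.5 reads, which gives a counting error of 8.93%, 11.6% and 10.9%. Replicates differed by more than that counting error, with chi-square values per degree of freedom of 2.07 to 4.02. A single position, 693, was at 0 in replicate 2, where 0 reads allow up to 1.51 RPM.

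The 4 stretches that carry several of the differences described below are printed as RNA, 5′ to 3′, from the base column of the deposited table. Each was set by joining the positions named by rank and adding 10 bases at either end, and each is shown once for either strain. Capitals mark bases with 100 RPM or more in the WT median (WT lines) or in all 3 replicates (*hmo1Δ* lines). Their places on the minus strand of R64-1-1 are chrXII:467193-467213, chrXII:467141-467175, chrXII:467000-467042 and chrXII:466934-466970, in the order shown.
WT, 357 to 377: gGucgcaagacugugauucuu
*hmo1Δ*, 357 to 377: gGUcgcaagACUgugauucuu
WT, 395 to 429: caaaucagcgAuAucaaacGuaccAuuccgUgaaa
*hmo1Δ*, 395 to 429: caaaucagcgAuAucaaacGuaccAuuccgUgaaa
WT, 528 to 570: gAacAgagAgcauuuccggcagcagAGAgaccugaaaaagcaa
*hmo1Δ*, 528 to 570: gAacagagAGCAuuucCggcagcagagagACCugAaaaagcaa
WT, 600 to 636: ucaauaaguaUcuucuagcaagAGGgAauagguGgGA
*hmo1Δ*, 600 to 636: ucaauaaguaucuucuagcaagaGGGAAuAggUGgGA
In the stretch from 395 to 429 the capitals fell on the same 5 bases in both strains, and in the other 3 they did not.

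Total occupancy of distal ETS1 was close to WT, and its distribution over single positions was not. Summed over the 350 positions, occupancy was 21219, 23556 and 19990 RPM in replicates 1, 2 and 3, against 19516 RPM in the WT median. All 3 replicates lay above WT, but replicate 3 did so by only 0.03 on the log2 scale. The mean log2 ratio was 0.14 ± 0.12 (SD, n = 3), a 1.10-fold difference, and the region held 2.16% ± 0.181 (SD, n = 3) of all occupancy up to T1, against 1.95% in WT. When each profile was instead scaled to its own total over the 4 spacers, the direction turned and the log2 ratio was -0.40, since the 4 spacers together were higher in *hmo1Δ* by 0.54 ± 0.038 (SD, n = 3) and that scaling lowers each log2 ratio of sums by as much.

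Other regions set the scale for this small difference. The log2 ratio of summed occupancy was 1.08 ± 0.02 in ITS1, 0.99 ± 0.03 in ITS2 and 1.22 ± 0.28 in ETS2 (SD, n = 3 each), so the spacers between and after the mature rRNAs were near or above 2-fold higher in *hmo1Δ*. It was 0.02 ± 0.12 in proximal ETS1, -0.15 ± 0.01 in 18S and 0.01 ± 0.01 in 25S. Distal minus proximal ETS1 gave 0.11, 0.12 and 0.12 in the 3 replicates, a mean of 0.12 ± 0.0081 (SD, n = 3). An exact sign-flip permutation test over the replicates, two-sided, gave p = 0.25, the smallest that 3 replicates allow. Taken as the difference of medians of the log2 ratios of single positions, it was 0.050.

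**Figure D1:**
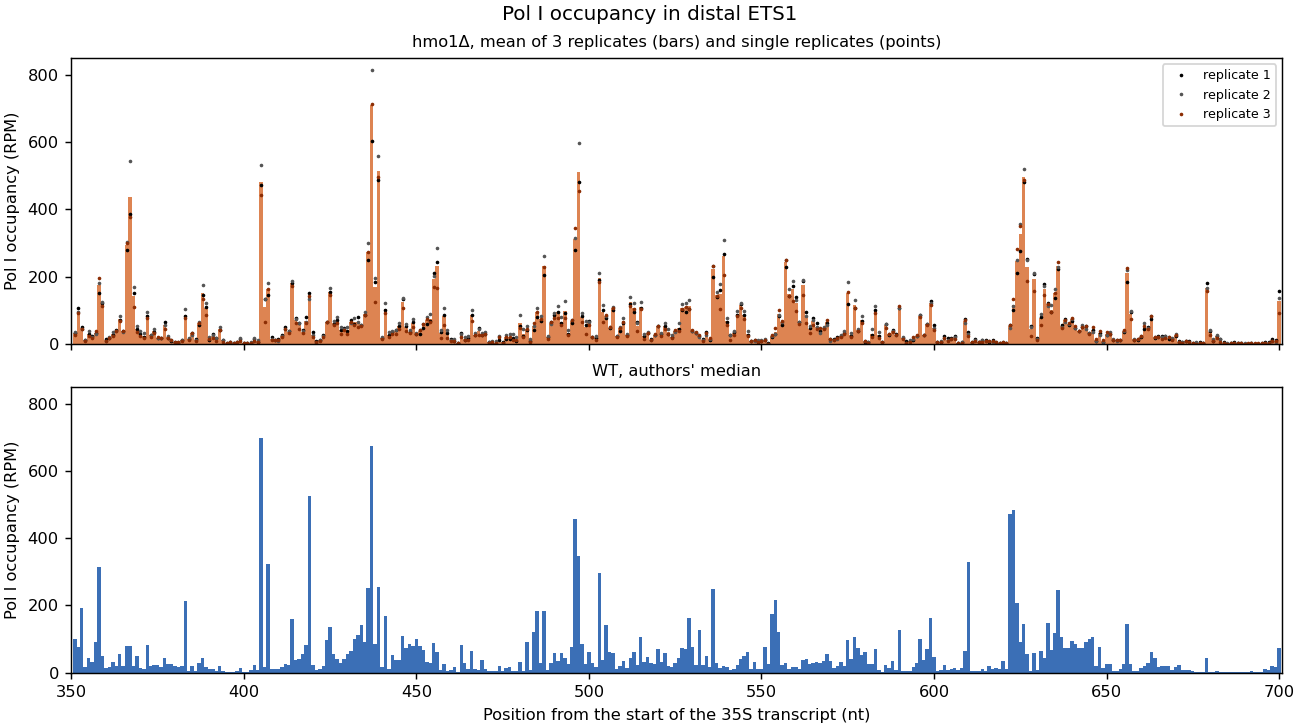
Pol I occupancy along positions 351 to 700 of the 35S gene, in RPM, with bars for the mean and points for the 3 replicates of *hmo1Δ* (top) and bars for the authors' WT median (bottom). The replicates follow each other closely, while peaks such as 622 and 623 stand in WT and 625 and 626 in *hmo1Δ*.

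Position by position, 171 of 350 (48.9%) were above the WT median in all 3 replicates, where 44.2% of all gene positions and 65.4% of positions in the 4 spacers were. A further 111 were below WT in all 3, or 31.7%, beside 37.2% of the gene and 19.1% of the spacers, and 68 were mixed. Distal ETS1 thus had shares near those of the whole gene, with fewer positions above and more below than the 4 spacers. The paper reports from earlier work that Pol I NET-seq libraries carry mature rRNA, and it therefore looks to the spacers for nascent RNA. In *hmo1Δ*, 18S and 25S held a mean of 27.6% and 59.4% of the occupancy up to T1. How far mature rRNA adds to the values of the gene was not tested. Scaled to the 4 spacers, 104 positions were above and 188 below.

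Large differences went both ways. Increases were more common there than over the gene but less common than over the 4 spacers. Decreases were more common than over either. All 3 replicates were at least 2-fold above WT at 63 positions (18%), beside 12.5% over the gene and 32.9% over the spacers. They were at least 2-fold below at 34 positions (9.71%), beside 1.72% and 5.62%. Proximal ETS1 had 48 positions 2-fold above and 39 below (11.1%), so decreases of this size were present in both parts of ETS1. Scaled to the 4 spacers, the counts for distal ETS1 were 30 and 65. The intervals of the mean ± 2 SE, those of WT as given by the authors, lay apart with *hmo1Δ* higher at 131 positions and lower at 84, beside 32.9% and 24.7% of the gene and 53.9% and 14.3% of the spacers.

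Replicates ranked the positions alike. The Spearman coefficient over the 350 positions was 0.984, 0.980 and 0.975 between pairs of replicates and 0.759, 0.743 and 0.794 between each replicate and the WT median. In proximal ETS1 the coefficient with WT was 0.825 ± 0.023 (SD, n = 3). These are descriptions over positions that share a library and a sequence. Of the 35 positions with the highest occupancy, 17, 17 and 18 were also among the 35 highest of WT, or 48.6% to 51.4%, whereas pairs of replicates shared 30 to 33, or 85.7% to 94.3%.

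**Figure D2:**
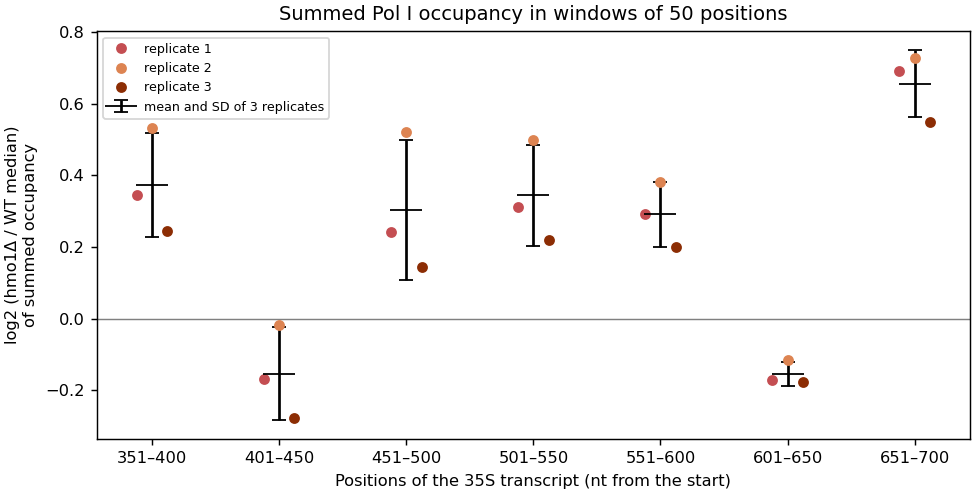
Log2 ratio of summed occupancy to the WT median in the 7 windows of 50 positions, with a point for each *hmo1Δ* replicate and the mean and SD. The last window, 651 to 700, lies highest at 0.66, and 401 to 450 and 601 to 650 lie below 0.

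Along the region, 5 of 7 windows of 50 positions were above WT in all 3 replicates and 2 were below in all 3. The windows below were 401 to 450, at -0.17, -0.02 and -0.28 on the log2 scale, and 601 to 650, at -0.17, -0.12 and -0.18. They hold the highest occupancy of distal ETS1 in WT. The windows 351 to 400, 451 to 500, 501 to 550 and 551 to 600 were at a mean of 0.37, 0.30, 0.34 and 0.29, and scaled to the 4 spacers they turned to -0.17, -0.24, -0.20 and -0.25. The same scaling put 401 to 450 at -0.70, 601 to 650 at -0.70 and 651 to 700 at 0.11. Replicate 2 was the highest and replicate 3 the lowest in 7 of 7 windows.

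The last 50 bases before 18S had the lowest occupancy of the 7 windows and, under the authors' scaling, the highest ratio of sums to WT. The median log2 ratio of single positions was 0.35 there, below the 0.45 of 451 to 500. Of its 50 bases 30 are U, more than in any other window. The window from 651 to 700 summed to 1298, 1331 and 1177 RPM in replicates 1, 2 and 3 against 804 RPM in WT, a mean log2 ratio of 0.66, with all 3 replicates above WT. Within it, position 680 held 37.6, 42.3 and 27.0 RPM where WT held 3.20 RPM, and its neighbour, 679, held 181, 165 and 158 RPM, a mean of 1.87 above WT on the log2 scale. Both were chosen after their values were seen, and 680 lies under the minimum of 50 RPM set for the increases named below. Position 700, the last base of the spacer and the U just before 18S, was at 157, 138 and 92.2 RPM against 72.9 RPM. A 3′ end there is also what cleavage at A1 would leave, and the part of such ends in the value was not tested.

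The highest position in *hmo1Δ* was the G at 437, at 605, 815 and 715 RPM, beside 675 RPM in WT, and here the replicates lay on both sides of WT. The highest in WT was the A at 405, at 699 RPM, and in *hmo1Δ* it was at 474, 533 and 442 RPM. All 3 replicates were lower, although 405 stayed among the 8 highest positions of *hmo1Δ*. A pair of adjacent bases at 496 and 497 was also high in both strains, with the order of the pair turned over. The G at 496 was at 280, 314 and 344 RPM against 457 RPM in WT, and the A at 497 at 481, 598 and 455 RPM against 347 RPM. Scaled to the 4 spacers, the log2 ratio at 437 was -0.48 and that at 497 was 0.0077, while the order within the pair does not depend on scaling.

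The other 4 of the 8 highest positions in *hmo1Δ* were not among the 8 highest of WT, and 2 of them, at 625 and 626, lie in the stretch described next. The C at 367 was at 388, 544 and 378 RPM against 79.7 RPM in WT, 5.48-fold higher by the mean. The A at 439 was at 487, 559 and 497 RPM against 256 RPM, 2.01-fold higher. In the other direction, the A at 419 ranked just below 405 and 437 in WT, at 526 RPM, and was at 153, 134 and 144 RPM in *hmo1Δ*, 3.66-fold lower. At each of these 3 positions all replicates lay on the same side of WT.

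The stretch from 600 to 636 held, under the authors' scaling, a similar total in both strains but at different bases. Its sum was 2862, 3011 and 2793 RPM in replicates 1, 2 and 3, around the 2873 RPM of WT, while scaled to the 4 spacers its log2 ratio was -0.53. The A at 622 was at 55.7, 47.9 and 56.6 RPM against 470 RPM in WT, 8.81-fold lower, and the G at 623 at 101, 113 and 134 RPM against 483 RPM. Further downstream, the G at 625 was at 277, 356 and 350 RPM against 90.6 RPM, and the A at 626 at 483, 520 and 487 RPM against 146 RPM, a mean of 1.76 on the log2 scale. In the printed sequence the capitals move accordingly within the run agaGGGAA. The centre of occupancy of the stretch was at position 623.0 in WT and at 625.9, 626.3 and 626.3 in the replicates, 3.15 ± 0.216 bases downstream (SD, n = 3).

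That stretch also held the largest decrease by the named rule. The U at 610 was at 35.7, 29.7 and 22.8 RPM against 330 RPM in WT, 11.2-fold lower. The authors' CV over the WT replicates was 24.8% at this position, above the median of 13.7% over distal ETS1. Whether RNA 3′ ends left by processing add to the WT value at 610 was not tested.

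**Figure D3:**
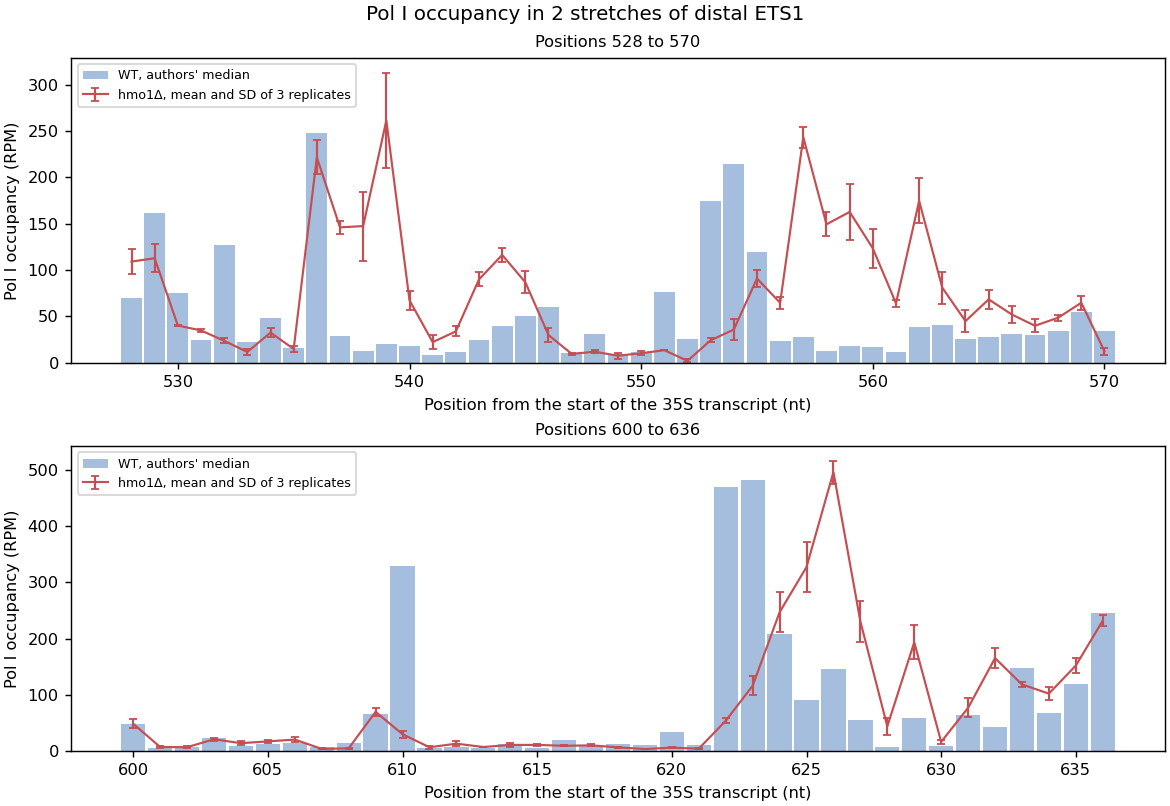
Occupancy in RPM by position in the stretches 528 to 570 (top) and 600 to 636 (bottom), with bars for the authors' WT median and a line with error bars for the mean and SD of the 3 *hmo1Δ* replicates. The WT pairs at 553 and 554 and at 622 and 623 each lie a few bases upstream of high *hmo1Δ* positions, from 557 and from 625, while 536 is high in both strains. Of all stretches joined by the same rule, those shown had the largest mean shifts of centre downstream.

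The 6 largest increases by the named rule all lay in the stretch from 528 to 570, in 2 clusters. One lay beside position 536, which was high in both strains, at 222 ± 18.4 RPM (SD, n = 3) in *hmo1Δ* and 248 RPM in WT. The A at 539 was at 269, 309 and 207 RPM against 20.3 RPM in WT, 12.9-fold higher, and the C before it, at 538, was at 159, 177 and 106 RPM against 12.9 RPM. The other cluster ran from 557 to 560, with the A at 557 at 231, 250 and 249 RPM against 27.9 RPM, 8.73-fold higher. The C at 558, the C at 559 and the U at 560 were at 149 ± 12.9, 163 ± 30.3 and 123 ± 21.3 RPM (SD, n = 3 each) against 12.2, 18.2 and 16.6 RPM. Every replicate exceeded WT at each of these 6 positions, which the rule for naming them required.

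Just upstream of that cluster were 3 of the 6 largest decreases. The A at 551 was at 13.4 ± 0.232 RPM against 76.0 RPM in WT, the A at 553 at 24.1 ± 2.22 RPM against 174 RPM, and the G at 554 at 35.7 ± 11.3 RPM against 215 RPM (SD, n = 3 each). The total of the stretch was 3202, 3448 and 2953 RPM where WT held 2165 RPM, a log2 ratio of 0.56 that came to 0.020 when scaled to the 4 spacers. Its centre, which does not depend on the scaling, lay 2.39 ± 0.367 bases downstream of that of WT (SD, n = 3). Of all stretches joined by the same rule, this one and 600 to 636 had the largest mean shifts downstream. Smaller shifts downstream were 1.91 bases in 357 to 377, 0.89 in 690 to 710, 0.51 in 570 to 590 and 0.31 in 395 to 429. The centre lay upstream in 427 to 449, 486 to 507 and 341 to 361, at -0.06, -0.98 and -2.04 bases. The remaining large decrease was the A at 580, at 6.22, 10.6 and 7.83 RPM against 62.9 RPM. The first base of distal ETS1, at 351, held 33.8, 36.8 and 27.0 RPM, below the 101 RPM of WT.

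Downstream displacement did not hold along the whole region. Of its 14 windows of 25 positions, the centre of occupancy lay downstream of WT in all 3 replicates in 6 and upstream in 6, beside 45.2% and 41.5% of the 272 windows of the gene and 47.5% and 40.7% of those in the spacers. Of its 7 windows of 50 positions, 4 were downstream and 2 upstream, beside 47.4% and 37% of the gene and 51.7% and 37.9% of the spacers. Of 18 positions that were at least 2-fold lower in all 3 replicates, with 50 RPM or more in either strain, 11 had a position at least 2-fold higher within 10 bases downstream and 4 had one upstream. The same counts in proximal ETS1 were 13 downstream and 16 upstream, of 24. The higher positions numbered 38 in distal and 38 in proximal ETS1, so many positions have one nearby. Adjacent decreases were counted singly, and the share over all positions was not computed. No displacement is read from these counts.

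**Figure D4:**
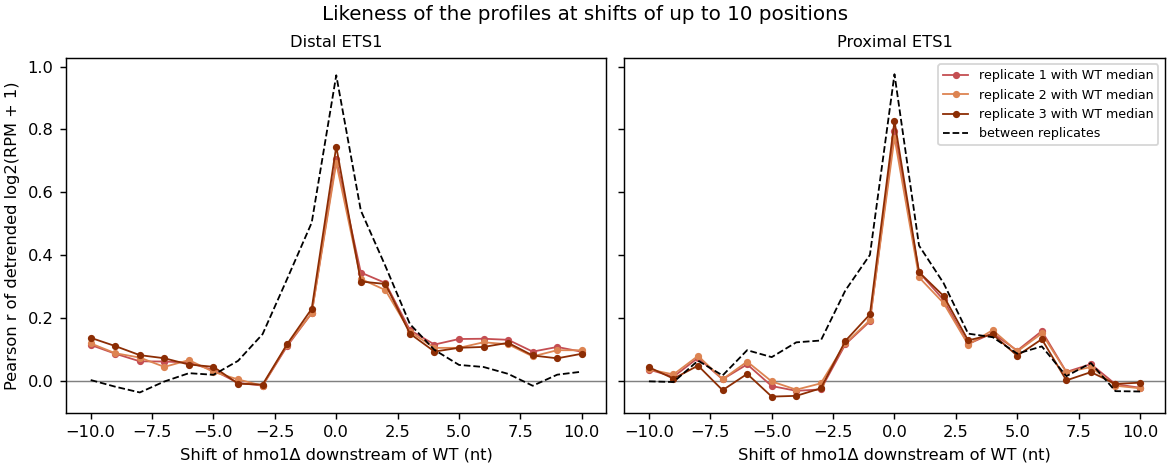
Pearson correlation across positions of detrended log2(RPM + 1) for each *hmo1Δ* replicate with the WT median, by displacement of *hmo1Δ* in bases (positive, downstream), in distal ETS1 (left) and proximal ETS1 (right), with pairs of replicates as a dashed line. In distal ETS1 it is 0.714 on average without displacement, and higher 1 and 2 bases downstream (0.328 and 0.303) than upstream (0.220 and 0.114), but not at 10 bases.

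Whole profiles were also compared at displacements of up to 10 bases. With local trends removed, the correlation across positions of *hmo1Δ* with WT was 0.714 ± 0.027 (SD, n = 3) without displacement, against 0.972 between replicates. At displacements of 3 to 8 bases it averaged 0.117 ± 0.0096 downstream and 0.035 ± 0.0031 upstream. Between replicates, where no strain difference exists, the averages were 0.064 and 0.036. Which side counts as downstream is arbitrary there, as it depends on the order in which the replicates of a pair were taken. These averages are thus no reference for an asymmetry. In proximal ETS1 *hmo1Δ* with WT gave 0.095 downstream and 0.0047 upstream, so the asymmetry was not particular to distal ETS1. These correlations are weak and describe positions that share libraries.

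Which base ended the RNA went with the direction of the difference. Of 103 positions where the last base was U, 74 (71.8%) were above WT in all 3 replicates and 9 were below. For C the counts were 29 above and 22 below of 62, for A 39 and 47 of 103, and for G 29 and 33 of 82. The share for U was 49.5% over the gene, 62.0% in proximal ETS1 and 78.9% over the 4 spacers, so it was not particular to distal ETS1. Scaled to the 4 spacers it was 46.6%. The U at 610, described above, is among the 9 exceptions.

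A comparison within each profile does not depend on the scaling. The log2 ratio for pyrimidine ends minus that for purine ends was 0.80, 0.78 and 0.54 in the 3 replicates, a mean of 0.71 ± 0.14 (SD, n = 3), with an exact sign-flip permutation p of 0.25, two-sided, the smallest possible. Pyrimidine ends held 38.1%, 37.8% and 34.0% of the occupancy of distal ETS1 in *hmo1Δ* and 26.2% in WT, while 47.1% of its positions are pyrimidines. The same difference was 0.46 ± 0.089 in proximal ETS1, 0.39 ± 0.12 in ITS1, 0.20 ± 0.072 in ITS2, -0.35 ± 0.26 in ETS2, 0.04 ± 0.051 in 18S and -0.02 ± 0.049 in 25S (SD, n = 3 each). Distal exceeded proximal ETS1 by 0.24 ± 0.054 in 3 of 3 replicates, again with an exact permutation p of 0.25. These ratios are of sums, to which a few high positions add much. In distal ETS1 the median log2 ratio of single positions was 0.71 ± 0.22 for U and 0.13 ± 0.099 for C. It was -0.07 ± 0.032 for A and -0.03 ± 0.14 for G (SD, n = 3 each). Across positions the difference thus lay mainly in U. The grouping into pyrimidines and purines was not planned beforehand.

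Among the 35 highest positions, too, pyrimidine ends were more common in *hmo1Δ* than in WT. In WT, 45.7% of them ended in G and 5.71% in U. In *hmo1Δ*, G ended 24.8% ± 3.30 and U 18.1% ± 3.30 (SD, n = 3 each), beside 23.4% and 29.4% of all positions. Purines ended 65.7% ± 4.95 of the highest positions in *hmo1Δ*, 85.7% in WT and 52.9% of all positions. The difference was not present among the 8 highest positions of each strain. There the only pyrimidine was the C at 367 in *hmo1Δ* and the U at 610 in WT. The 10 last bases of the RNA include the end itself. Over them, G made up 34.5% ± 0.330 at the highest positions of *hmo1Δ* and 31.4% at those of WT, beside 23.5% at all positions. G was the end itself less often in *hmo1Δ*, so these shares understate the difference upstream of the end, which was not counted alone. In the 10 bases before those, U made up 33.0% ± 0.873 in *hmo1Δ*, 28% in WT and 28.8% at all positions. From the spacers, the paper reports Pol I in *hmo1Δ* to be sensitive to G-rich regions just downstream of T-rich ones. These differences were not tested.

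Homopolymer runs differed among themselves. The run of 11 A from 636 to 646, at chrXII:466924-466934, summed to 750, 740 and 787 RPM in replicates 1, 2 and 3 against 1120 RPM in WT, and 10 of its 11 positions were below WT in all 3 replicates. The run of 5 A from 562 to 566, which follows the cluster at 557 to 560 in the printed stretch, was at 470, 451 and 342 RPM against 163 RPM. By their sums, the 3 runs of 5 or more U were above WT by 0.26 to 0.44 on the log2 scale. Scaled to the 4 spacers they were at -0.099, -0.13 and -0.28. Not all of their bases were raised. All 3 replicates were above WT at 4 of 5 bases in 523 to 527, 2 of 5 in 571 to 575 and 3 of 6 in 665 to 670. In 571 to 575 the median log2 ratio of single positions was -0.12. No direction was shared by both A runs.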

How the data were processed

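The 3 *hmo1Δ* Pol I NET-seq samples of the series were used. Per the labels and the methods, the authors removed duplicate reads by UMI, trimmed with cutadapt 3.4, aligned with STAR 2.7.1a to R64-1-1 and computed coverage with BEDTools 2.28.0. The *hmo1Δ* and WT median values deposited by the authors are RPM, scaled to sum to 1000000 up to position 6739 (T1), so a change in one region shifts all others. Deposited score columns hold the authors' CV over WT replicates in percent and their interval around the WT mean in RPM, whose midpoint was taken as the WT mean. The authors' columns of differences, ratios (fold) and p-values were not used, nor were 3 columns of single WT replicates of another series.

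Depth was read from the step between low RPM values, the worth of 1 read. The share of values that were whole multiples was 99.9% to 100%. Floors (3 reads) and counting errors cover counting error only. Sums, log2 ratios, log2((RPM + 1)/(WT + 1)) at single positions, centres of occupancy and Spearman coefficients were computed per replicate with Python 3.11.15, scipy 1.17.1, numpy 2.4.6 and pandas 2.3.3. Only the 2-fold calls and the correlations at displacements were checked on simulated profiles. Folds are ratios of the replicate mean to the WT median. Named positions were the 8 highest in either strain, the 6 largest increases and decreases at 50 RPM or more with all 3 replicates on that side, and the first and last. The U3 part of that rule was not used here. Members, lists and positions were chosen with earlier results of these data known. Alternatives were other scalings, filters, folds, pseudocounts, sets and offsets, and each replicate left out.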

Additional observations from a re-analysis of the deposited data

How the results depend on the processing

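Scaling decided the direction of the sums. Scaled to the 4 spacers, where *hmo1Δ* holds more of its occupancy than WT, distal ETS1 was at -0.40, with 104 positions above and 188 below WT, 30 and 65 of them by 2-fold, and 46.6% of U ends above. The windows 351 to 400, 451 to 500, 501 to 550 and 551 to 600 turned to -0.17, -0.24, -0.20 and -0.25 under that scaling, 401 to 450 and 601 to 650 were both at -0.70 and 651 to 700 at 0.11. The stretches 486 to 507 and 690 to 710 turned to -0.38 and -0.15, and the U runs to -0.099, -0.13 and -0.28. Scaling to 25S, or without the highest 1% of positions, moved none of these beyond the spread between replicates or, for counts, 1.5 times. The difference between distal and proximal ETS1 was 0.050 by medians. With 10 or more reads per replicate, the Spearman coefficients were 0.974 between replicates and 0.697 with WT, and a moving average over 25 positions gave 0.841 with WT. Counts at 1.5-fold were 101 above and 57 below, and at 3-fold 28 and 15. In the top 5% of positions of *hmo1Δ*, purine ends made up 88.9%, G in the last 10 bases 39.3% and U in the 10 bases before 34.6%. In the top 20% these were 56.7%, 31.7% and 29.3%, and 54.3% of positions were shared with WT. The base shares of WT were not computed at 5% or 20%. Reading the base before the tabled one, 50% of U ends were above WT, and 67.6% of the highest positions ended in purines. Reading the base after, the shares were 46.2% and 43.8%. The higher share of U ends above WT thus rests on the tabled base being the 3′ end. The purine share, 65.7% at the tabled base, was similar at the base before.

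Leaving out each replicate in turn gave log2 ratios of 0.08 to 0.20, Spearman coefficients of 0.975 to 0.984 between replicates and 71.8% to 83.5% of U ends above WT. The WT mean, the 2-SE intervals and the alternatives on U ends, stretches and runs were chosen after seeing the data. No paired analysis between strains was possible because the labelled samples form a single group, and the single WT replicates, which belong to samples of another series, were not used. Depth limits the positions of low occupancy, since 8, 36 and 21 positions had under 10 reads in replicates 1, 2 and 3.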
